A study of Mus musculus with 2 samples.

Results

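The genes described here mark and set the choice between the CD4 (helper) and CD8 (cytotoxic) T cell lineages. They were listed by name, with earlier results of these arrays known, so their counts are descriptions. The 10 genes are Cd4, Cd8a, Cd8b1, Zbtb7b, Runx1, Runx2, Runx3, Cbfb, Ctsw and Nkg7. The array's probes could be matched to 18434 gene symbols, among them 9 of the 10, and Cd8b1, encoding the CD8 beta chain, had none that could be matched and is left out. The 9 were read by 18 different probes, and 17 of these were well above background on both arrays.

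The study compared Menin KO CD4 T cells with Menin WT CD4 T cells, 1 array of each. Menin is the product of Men1 and works in chromatin complexes with MLL histone methyltransferases. Both groups were naive CD4 T cells from the spleens of female C57BL/6J mice, purified with a kit for cells carrying CD4 and CD62L. Antibodies to TCR-beta (3 µg/ml) and CD28 (1 µg/ml) stimulated them for 2 days, with 2.5 ng/ml of IL-2 present, and 3 further days in IL-2 without antibodies followed. How Men1 was deleted, the ages of the mice and whether animals were pooled are not given in the sources used here.

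A mature T cell normally carries 1 of the 2 coreceptors. CD4 binds MHC class II and goes with helper function, and CD8 binds MHC class I and goes with killing. In the thymus, ThPOK (encoded by Zbtb7b) holds cells in the CD4 lineage, while Runx proteins bound to their partner CBF-beta silence Cd4 and, in the case of Runx3, favour Cd8 genes and cytotoxic genes.

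With 1 array in each group, no difference could be tested, and a replicate culture or mouse was not measured. Values are processed signals (scanner brightness after background subtraction, in arbitrary units) and log2 differences, KO minus WT, after each array was scaled to its 75th percentile of signal (650 for KO, 644 for WT). On the KO array 63.5% of non-control spots were well above background, and on the WT array 59.5%. The scanner software's own error for each signal came to 0.20 to 0.23 on the log2 scale for a difference. Scatter over spots was taken from 138 probes with at least 5 used spots, all of them well above background on both arrays. The difference had a pooled SD over spots of 0.054 for signals of 100 or more (110 probes) and 0.23 below that (28 probes). Repeated probes with spots at background are not in these values. Both errors are technical and say nothing of variation between mice. Signals are not compared between probes, since a probe's brightness depends on its sequence. Men1 had a signal of 459 in KO and 1081 in WT, and Bach2, named in the series title with Menin, 604 in KO and 4643 in WT. The files do not say which bases of Men1 were removed or where its probe lies, so this signal does not check the deletion.

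A log2 difference of 1, which is 2-fold, served as the size rule. Of the 9 lineage genes with a value, 4 were at least 2-fold higher in KO (Cd8a, Nkg7, Runx2 and Ctsw), against 10.8% of all 13510 named genes with a value. At least 2-fold lower in KO was 1 of the 9 (Runx1), against 5.14% of all genes. Counted by probe, 8 of 17 were at least 2-fold higher (9.32% of all named probes) and 1 was at least 2-fold lower (4.96%). The median difference of the 9 genes was 0.56, beside -0.01 for all genes. Over all genes 67.8% of the at least 2-fold differences were on the higher side, 26.3% after normexp background correction, and 67.3% after the same correction with aberrant local backgrounds replaced (6 spots on the WT array, 0 on the KO array). The number of these 9 genes at least 2-fold higher was 4 under both corrections.

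**Figure D1:**
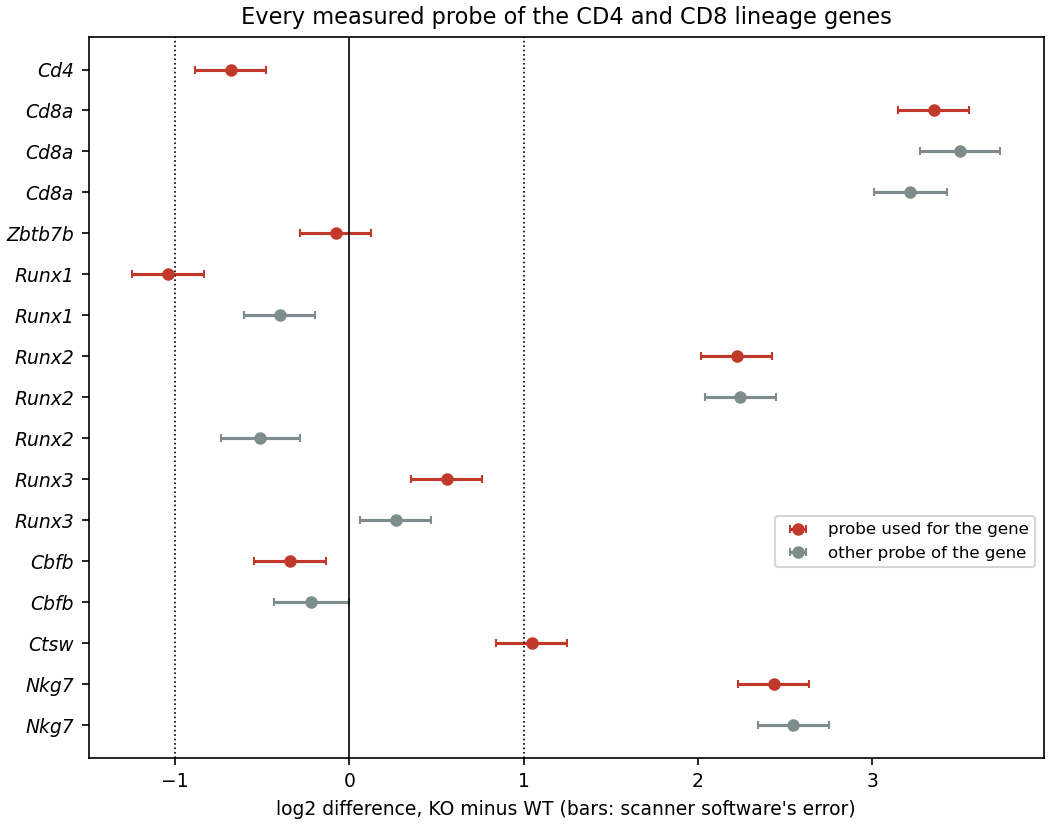
Log2 difference, KO minus WT, for each of the 17 measured probes, with the scanner software's error as bars and dotted lines at the 2-fold limits. The 3 Cd8a probes sit farthest to the right (3.22 to 3.50), Zbtb7b lies at -0.08 and Runx2 has probes on both sides of 0.

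The coreceptor genes differed in opposite directions. Cd8a, encoding the alpha chain of CD8, was about 10-fold higher in KO by every one of its 3 probes, while Cd4 was lower by less than 2-fold (log2 -0.68). Cd8a was read by a probe spotted 10 times on each array. Its signal ran from 910 to 1062 in KO (median 999), and from 95.8 to 112 in WT (median 106). The lowest KO spot lay far above the highest WT spot. The other 2 Cd8a probes had 3213 in KO against 312 in WT, and 425 in KO against 37.2 in WT. Their log2 differences of 3.35 and 3.50, and the 3.22 of the probe with 10 spots, lay within 0.29 of each other, about the size of the software's error of 0.20 to 0.23. The value used for the gene, 3.35 (10.2-fold), was exceeded by 1.11% of all genes.

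Cd4, too, was read by a probe spotted 10 times. Its signal ran from 252 to 297 in KO (median 279, 10 spots) and from 435 to 453 in WT (median 442, 9 spots after 1 outlier was left out). The ranges over spots did not overlap. The log2 difference of -0.68 was 3.33 times the software's error, and its SD over 9 spots was 0.069. It stayed under the 2-fold limit, and 10.1% of all genes had a lower value. Cd4 remained well above background in KO, so its transcript was present in both groups.

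**Figure D2:**
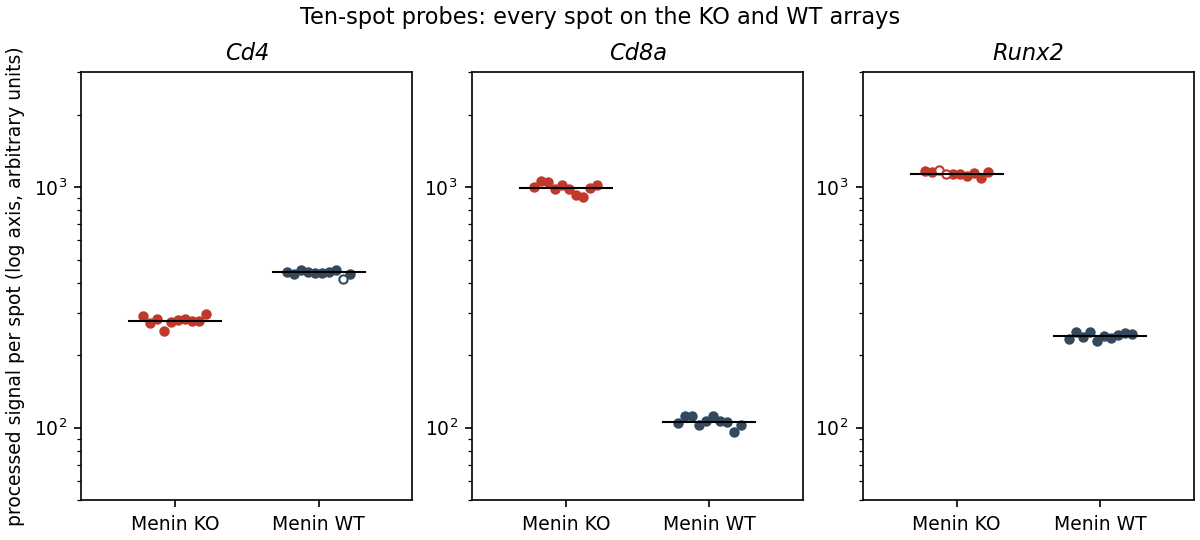
Processed signal of every spot of the probes printed 10 times for Cd4, Cd8a and Runx2, KO array left and WT array right, on a log axis; black lines are means of the used spots and open circles are spots with an outlier flag, left out. No used KO spot overlaps the WT spots: Cd4 is lower in KO (252 to 297 against 435 to 453), Cd8a higher (910 to 1062 against 95.8 to 112) and Runx2 higher (1094 to 1168 against 229 to 250).

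The gap between these differences does not depend on the constant by which each array was scaled. Cd8a relative to Cd4 was 16.4-fold higher in KO than in WT (log2 4.03, software's error 0.29), and from 3.90 to 4.18 over the 3 pairs of probes. In bulk RNA, a different number of cells of a type and a different amount of RNA per cell cannot be told apart. The cells were purified for CD4 and CD62L before culture. Of the 2 genes listed as markers of CD8 T cells, Cd8a is the one with a value, so no other marker of those cells stands beside it, and their part in the Cd8a value was not tested.

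The promoter of Cd8a is shown because this gene had the widest difference of the group. It covers 250 bases before and 50 from the start site on, at chr6:71373177-71373476 (plus strand, RefSeq, GRCm38.p6), with a Runx motif in capitals. The arrays' own probe annotation was on mm9, and no position was carried between builds.

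Cd8a: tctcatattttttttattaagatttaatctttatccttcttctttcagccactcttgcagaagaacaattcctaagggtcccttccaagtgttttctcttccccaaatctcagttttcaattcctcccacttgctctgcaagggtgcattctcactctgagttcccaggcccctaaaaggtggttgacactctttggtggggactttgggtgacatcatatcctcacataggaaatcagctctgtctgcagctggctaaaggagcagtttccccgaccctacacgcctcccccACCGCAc

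Runx proteins bind the letters TGTGGT or TGCGGT, which were searched on both strands. The Cd8a window held 1 match, TGCGGT on the minus strand, from base 43 after the start. Of 32544 promoter windows of this length, 22.4% held at least 1 of these motifs (16.7% TGTGGT, 6.46% TGCGGT), so a single match is common. The letters TGANTCA, which Bach and AP-1 proteins bind, were in 7.79% of windows and in none of the 10 windows that RefSeq gave for 7 of the lineage genes. Cd4, Cd8b1 and Ctsw had no window in the table.

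Zbtb7b, the gene for ThPOK, was close to equal on the arrays. Its single probe had 2766 in KO and 2893 in WT. The log2 difference of -0.08 was smaller than the software's error of 0.20, and 85.7% of all genes lay farther from 0. Under normexp background correction it was 0.15, and -0.02 with aberrant local backgrounds replaced, so its sign depended on the processing. Its relatives were under 2-fold by every probe: Zbtb7a, encoding LRF, which acts beside ThPOK in CD4 T cells, had 0.07 by its brighter probe (0.42 by the other), and Zbtb7c had -0.08 (0.27 by the other).

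The Runx genes differed from one another. Runx2 was 4.67-fold higher in KO, Runx3 was 1.47-fold higher and Runx1 was 2.06-fold lower by its brighter probe. Runx2, best known as the master regulator of bone formation and also expressed in activated T cells, had a probe spotted 10 times. Its signal ran from 1094 to 1168 in KO (median 1137, 8 spots) and from 229 to 250 in WT (median 241, 10 spots), so the arrays did not overlap. The log2 difference was 2.22 with an SD over 8 spots of 0.056, and 3.28% of genes were higher. Another Runx2 probe gave nearly the same, 2.24, with 751 in KO and 157 in WT. A dim one went the other way, with 47.1 in KO and 66.6 in WT (-0.51), and the last read background on both arrays. Over its probes the mean was 1.32. All 4 carry the same transcript accession, and which part of the transcript each one reads was not given in the files.

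Runx3, the Runx factor of mature CD8 T cells, had 1611 in KO against 1085 in WT by its brighter probe, a log2 difference of 0.56. The second probe had 303 in KO and 250 in WT (0.27). The first was 2.73 times the software's error and the second 1.30 times, and both were under 2-fold. Runx1, the Runx factor of early thymocytes and of resting T cells, had 156 in KO against 318 in WT (-1.04), while its other probe had 188 in KO and 246 in WT (-0.40). These probes are annotated to different transcripts of Runx1, and both were lower in KO, by 5.07 and 1.95 times the software's error. The call of at least 2-fold rests on the first probe: the mean over both was -0.72, loess gave -0.92, and normexp, under which the other probe was the brighter, gave -0.58 or, with aberrant backgrounds replaced, -0.35. Runx3 relative to Runx1 was 3.03-fold higher in KO than in WT, with a lowest log2 value of 0.67 over the 4 pairs of probes. Runx2 relative to Runx1 was 9.61-fold higher (log2 3.26), and from -0.11 to 3.29 over 6 pairs of probes. Runx3 relative to Zbtb7b was 1.55-fold higher (log2 0.64, software's error 0.29), and the log2 value was 0.34 by the other Runx3 probe.

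Cbfb, encoding the partner that lets every Runx protein bind DNA tightly, had 13802 in KO and 17325 in WT by its bright probe (-0.34) and 87.4 in KO and 101 in WT by its dim one (-0.22). These were 1.67 and 1.02 times the software's error. Of 13 listed Runx cofactors, 11 had a value. At least 2-fold higher were 3 (27.3%, against 10.8% of all genes) and lower was 1 (9.09%, against 5.14%). The median of 0.12 ran from -0.04 to 0.20 over the alternatives. The corepressor genes Cbfa2t3 (252 in KO, 66.3 in WT, 3.76-fold) and Tle2 (289 in KO, 112 in WT, 2.56-fold) were higher. Yap1, encoding a coactivator of the Hippo pathway that also binds Runx proteins, had 238 in KO and was not well above background in WT, which makes it at least 16.9-fold higher. Crebbp, encoding the acetyltransferase CBP, was 2.25-fold lower (53.6 in KO, 119 in WT). Aes was not found in the gene table under that symbol, and Runx1t1 read background on both.

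The start regions of the Runx genes are printed because these genes differed in their values and their windows share an arrangement of Runx motifs. Capitals mark Runx motifs. The windows lie at chr16:92826025-92826324 (minus strand) for Runx1, chr17:44814578-44814877 (minus strand) for Runx2 and chr4:135120395-135120694 (plus strand) for Runx3, all from RefSeq on GRCm38.p6. Each is written along the gene's own strand. Runx1 and Runx3 each have another start in the table, and those windows, at chr16:92697280-92697579 and chr4:135152295-135152594, held no Runx motif.

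Runx1: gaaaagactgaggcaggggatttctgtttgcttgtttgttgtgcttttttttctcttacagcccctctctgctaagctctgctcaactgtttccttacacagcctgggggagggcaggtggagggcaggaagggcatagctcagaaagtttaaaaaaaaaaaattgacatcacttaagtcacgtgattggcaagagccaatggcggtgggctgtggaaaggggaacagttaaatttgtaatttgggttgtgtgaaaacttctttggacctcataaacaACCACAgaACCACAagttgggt

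Runx2: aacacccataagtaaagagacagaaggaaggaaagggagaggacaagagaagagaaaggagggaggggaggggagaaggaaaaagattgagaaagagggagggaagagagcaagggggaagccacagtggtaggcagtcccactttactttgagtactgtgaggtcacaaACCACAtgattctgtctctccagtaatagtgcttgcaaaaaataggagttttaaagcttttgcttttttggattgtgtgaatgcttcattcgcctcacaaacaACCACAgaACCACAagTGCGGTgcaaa

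Runx3: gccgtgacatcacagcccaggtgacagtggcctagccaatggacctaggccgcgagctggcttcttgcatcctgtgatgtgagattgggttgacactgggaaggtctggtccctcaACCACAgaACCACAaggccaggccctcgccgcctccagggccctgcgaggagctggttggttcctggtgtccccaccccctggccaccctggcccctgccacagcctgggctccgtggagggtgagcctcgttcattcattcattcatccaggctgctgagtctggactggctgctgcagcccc

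In all 3, a pair of TGTGGT motifs on the minus strand stood 2 bases apart. The longest stretch that the windows share was 18 bases long.

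Shared stretch: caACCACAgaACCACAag

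This pair began 28 bases after the start in Runx1, 23 after it in Runx2 and 134 before it in Runx3, counting the start base as 0. The arrangement was present in 7 of 32544 windows (0.0215%), and the whole shared stretch in 4. The fourth belongs to Gm16225, whose window overlaps that of Runx3 by 232 bases on the other strand. Runx2 held 4 Runx motif matches in all, the most of the 7 lineage genes with a window. A match is a description of letters, and binding was not measured here.

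The genes linked to cytotoxic granules, Nkg7 and Ctsw, were higher in KO. Nkg7, a granule membrane protein needed for full degranulation, had 48537 in KO against 8903 in WT by its brighter probe and 22656 in KO against 3842 in WT by the other. The log2 differences were 2.43 and 2.55, so the probes differed by less than the software's error of 0.20. The value used, 2.43, was exceeded by 2.75% of all genes. Ctsw, encoding cathepsin W, a cysteine protease of cytotoxic lymphocytes, had 5278 in KO against 2531 in WT. Its 2.07-fold difference (log2 1.05) was just over the 2-fold limit, and was 0.97 when the arrays were centred on their medians. Nkg7 relative to Ctsw was 2.61-fold higher in KO than in WT (log2 1.39).

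The lists of related genes below were drawn up with earlier results of these arrays known, so their counts are descriptions, to be read beside the 10.8% of all genes at least 2-fold higher, the 5.14% lower and the median of -0.01. The 24 CD8-linked effector genes had a median of 1.26, and 13 of them reached 2-fold on the higher side, 1 on the lower and 10 neither. The median was 0.80 under normexp and 0.78 with aberrant backgrounds replaced. Perforin (Prf1, 38282 in KO and 1460 in WT), granzyme A (Gzma, 31422 in KO and 1285 in WT), the chemokine receptor gene Cxcr6 (3959 in KO and 166 in WT) and the receptor gene Cd244a (3166 in KO and 371 in WT) had the largest differences. Over the 3 probes of Cd244a the log2 difference ran from 1.89 to 3.08. Eomes, a T-box factor of CD8 T cells and natural killer cells, was the lower one, with 452 in KO and 1031 in WT, 2.30-fold. Of 16 cytotoxic granule genes, 6 of which are also in the effector list, 7 were higher, 1 lower and 8 between (median 0.89, and 0.60 under normexp). Granzyme K (Gzmk) had 117 in KO and 14.7 in WT, and Lyst, which regulates the size of lysosomal granules, was 3.19-fold lower (23.4 in KO, 74.1 in WT).

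Helper-linked genes were divided, with a median on the lower side. Their median was -0.56 over 10 genes with a value (9 measured on both arrays and the bound of Foxp3), of which 4 reached 2-fold on the lower side, 1 on the higher and 5 neither. The median was -0.27 over genes well above background on both arrays. Tnfsf8, the CD30 ligand, was 3.57-fold lower (763 in KO, 2699 in WT), Il6ra, an IL-6 receptor chain, 3.03-fold lower (32.2 in KO, 96.7 in WT), and Foxp3, the factor of regulatory T cells, at least 2.85-fold lower (background in KO, 29.3 in WT). Cd40lg, encoding the CD40 ligand that helper cells show to B cells, was 2.14-fold lower (34.6 in KO, 73.3 in WT). Il4 was the higher one (2286 in KO, 493 in WT). Under 2-fold, Gata3 (0.84), Icos (0.75) and Tnfrsf4 (0.12) were higher, and Cxcr5 (-0.85) and Cd28 (-0.27) lower. The summed signal of the list was higher in KO, 101467 against 82707 in WT. Most of that sum came from Tnfrsf4 (64989 in KO, 59172 in WT) and Icos (25394 in KO, 14933 in WT), both under 2-fold. Of 13 T cell identity genes 0 were at least 2-fold higher and 3 were lower (Cd6, Cd5 and Cd2), with a median of -0.27. Cd247, encoding the zeta chain of the receptor complex, was 1.91-fold lower (5068 in KO, 9593 in WT).

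**Figure D3:**
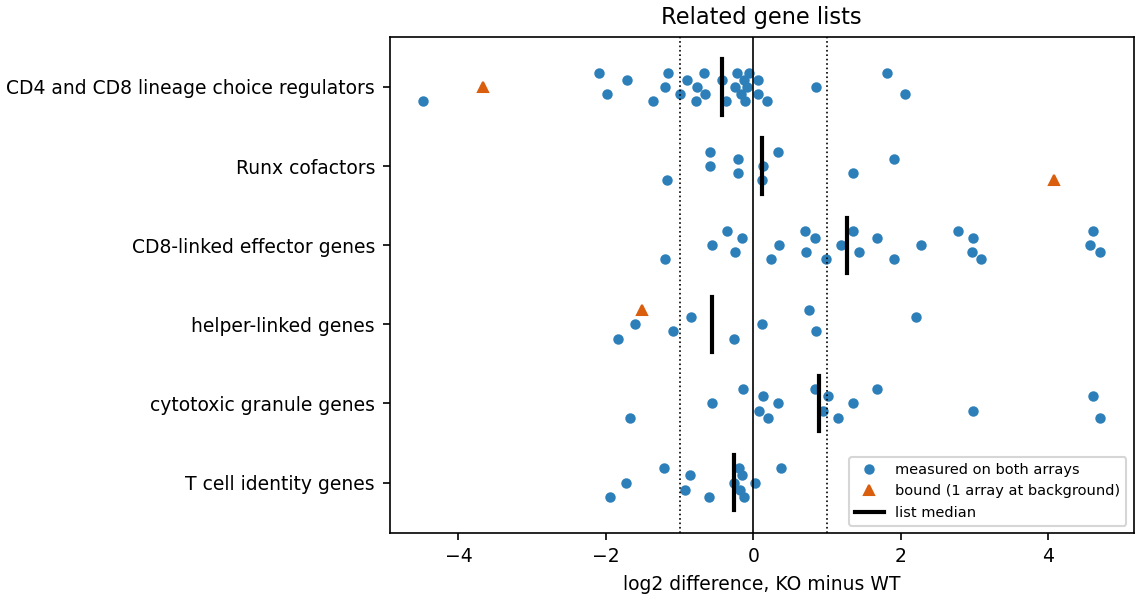
Log2 difference, KO minus WT, for the genes of the related lists; circles are genes measured on both arrays, triangles bounds, black bars list medians and dotted lines the 2-fold limits. The medians of the CD8-linked effector and granule lists are 1.26 and 0.89, those of the helper-linked and lineage regulator lists -0.56 and -0.42.

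The 29 regulators of the CD4 and CD8 choice with a value (28 measured on both arrays and the bound of Tox) had a median of -0.42, and 8 reached 2-fold on the lower side, 2 on the higher and 19 neither. The higher ones were Id2, an inhibitor of E proteins that goes with effector cells (27808 in KO, 6633 in WT, 4.15-fold), and Myb (7532 in KO, 2133 in WT, 3.50-fold). Tcf7, encoding TCF-1, was 22.2-fold lower, with 110 in KO and 2413 in WT, the lowest value among those measured on both arrays. Its partner gene Lef1 was 2.56-fold lower (2411 in KO, 6113 in WT). TCF-1 and LEF-1 act upstream of Zbtb7b in the thymus, and Zbtb7b itself was near 0 here. Tox, which the CD4 lineage needs in the thymus, was not well above background in KO by its brighter probe (at least 12.7-fold lower). Its other probe gave -1.85. Bcl11b, a guardian of T cell identity, was 4.25-fold lower (1820 in KO, 7667 in WT), and Id3, the relative of Id2, was 3.95-fold lower (608 in KO, 2383 in WT). Bcl6, the factor of follicular helper cells (3.29-fold), and Tcf12 (2.24-fold), encoding the E protein HEB, were the other lower ones besides Eomes. Gata3, which promotes Zbtb7b expression in thymocytes, was 1.80-fold higher. Patz1, encoding the MAZR repressor of Cd8 and Zbtb7b, had -0.06, Satb1 -0.76, Ets1 -0.99, Ikzf1 -0.66 and Dnmt1 -0.90. Tbx21 (0.19), Lck, the kinase that both coreceptors carry (-0.25), and Stat5a (-0.11) were close to equal. The remaining 8 regulators (Tcf3, Ikzf3, Hdac2, Hdac3, Stat5b, Mbd2, Dnmt3a and Socs1) ran from -0.78 (Dnmt3a) to 0.06 (Socs1).

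The genes near the lineage genes on their chromosomes did not follow a single pattern. For each, the nearest 2 genes with a value on either side were read, 36 in all without the lineage genes themselves. Genes without a value were passed over, so 0 (Gpr162 and Cd4) to 21 (Ces2a and Cbfb) genes lay between. At least 2-fold higher were 7 (19.4%, against 10.8% of all genes) and lower 1 (2.78%, against 5.14%). The median was 0.26, beside -0.01 for all genes. The other 28 did not reach 2-fold, and 3 of them (Clic6, Ces2b and Siglecf) are bounds, whose full difference is not known. Around Cd8a on chromosome 6, Krcc1 (-0.18), Smyd1 (-0.26) and Rmnd5a (-0.02) were near 0 and Rnf103 had 0.74. None of these came near the 3.35 of Cd8a. Cd8b1, directly beside Cd8a, had no matched probe, so its difference is not known. Around Cd4, also on chromosome 6, the gene next to it, Lag3, encoding an inhibitory receptor that is related to CD4 and binds MHC class II too, was 4.20-fold higher (6241 in KO, 1472 in WT). On the other side Gpr162 was 2.19-fold and P3h3 3.51-fold higher, while Ptms, beyond Lag3, had -0.13 (42479 in KO, 45919 in WT).

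Beside Runx2 on chromosome 17, Clic5 was 7.05-fold lower (59.2 in KO, 414 in WT), and Supt3, on the other side, had 0.16. Beside Nkg7 on chromosome 7, Cldnd2 was 2.58-fold higher (110 in KO, 42.0 in WT). Beside Ctsw on chromosome 19, Efemp2 was 4.52-fold higher (1186 in KO, 260 in WT) and Fibp had 0.09. The other at least 2-fold neighbours were Adam15 near Zbtb7b (2.33-fold higher) and Cbr3 near Runx1 (5.39-fold higher). No neighbour of Runx3 or Cbfb reached 2-fold, where Ces2b, with 17 genes between it and Cbfb, is a bound of at least 1.24-fold.

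**Figure D4:**
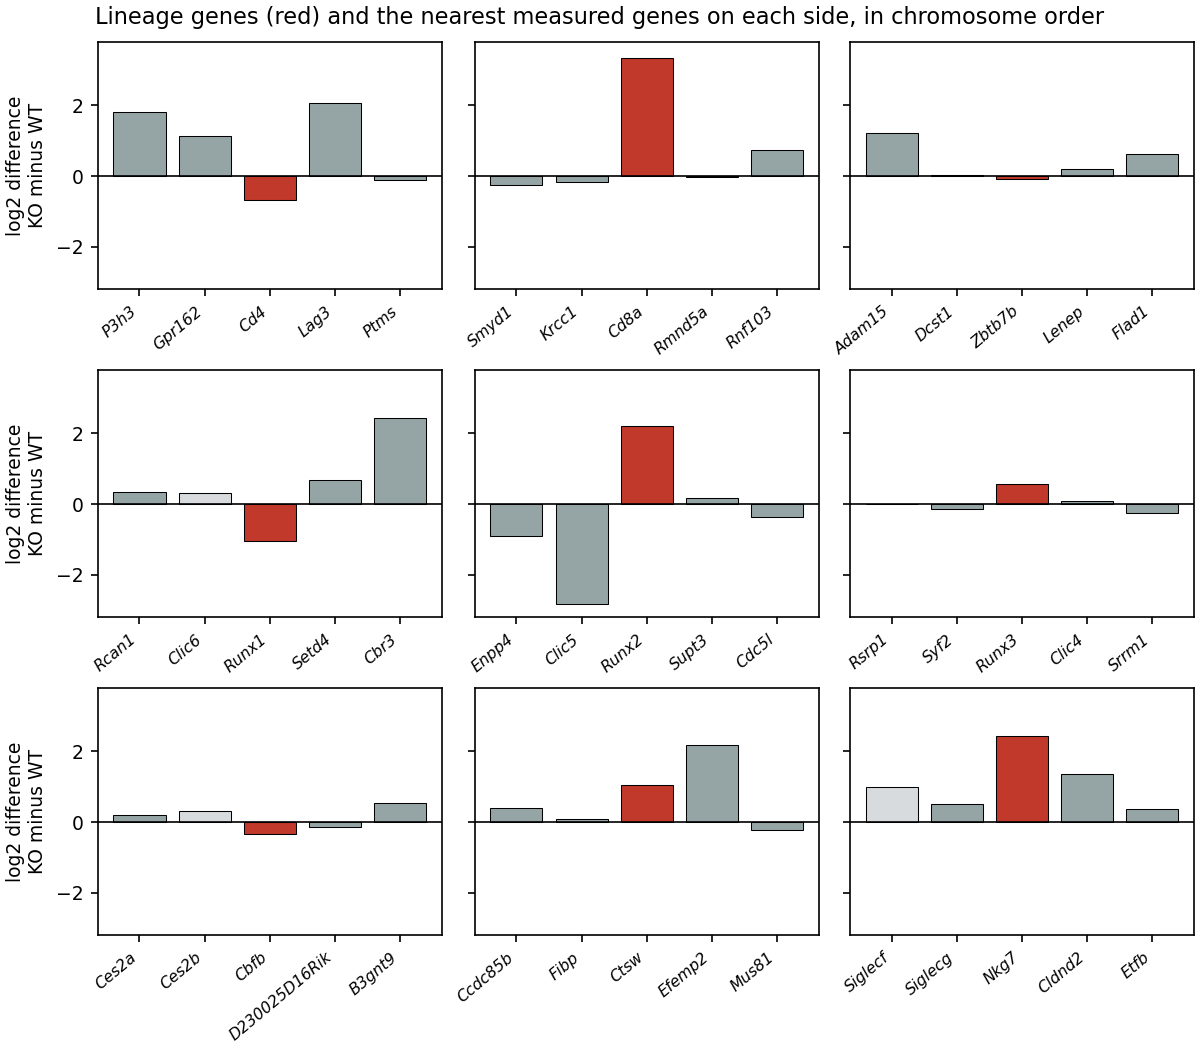
Log2 difference, KO minus WT, of 9 lineage genes (red) and of the nearest 2 genes with a value on each side, in chromosome order. Neighbours are grey, and pale bars are bounds. No neighbour shown comes near Cd8a, but Cd8b1, directly beside it, had no matched probe. Cd4 points down between Gpr162 and Lag3, both higher in KO.

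Markers of other cell types were read beside these values. Their counts stand beside the 10.8% of all genes at least 2-fold higher in KO and the 5.14% lower. Natural killer cell markers had 3 of 7 at least 2-fold higher in KO and a summed signal of 8926 in KO against 2390 in WT. The brightest were Fcer1g (5087 in KO, 669 in WT, 7.54-fold) and Klra7 (1690 in KO, 1189 in WT). Tyrobp (1229 in KO, 253 in WT, 4.82-fold) and Klrb1c (700 in KO, 129 in WT, 5.39-fold) were the others that reached 2-fold. Klra4 read background on both arrays, and Ncr1, the defining receptor of these cells, had 21.7 in KO and was at background in WT, a bound of at least 1.54-fold. Dendritic cells can also carry CD8 alpha. Their markers had 2 of 5 higher (47884 in KO, 20430 in WT in sum), of which Batf3 made up 47096 in KO and 20260 in WT. Itgax, encoding CD11c, was 30.8-fold higher (623 in KO). Xcr1 had 87.0 in KO and 87.1 in WT by its brighter probe (-1.40 by the other). Zbtb46 had a log2 difference of 0.27 by its brighter probe and -2.95 by the other. Flt3 was higher by less than 2-fold (24.5 in KO, 18.4 in WT). Clec9a had no matched probe, and Cd209a and Siglech read background on both arrays. Macrophage and monocyte markers had 3 of 7 higher (689 in KO, 369 in WT in sum), with Mpeg1 (-0.64) and C1qb (97.1 in KO, 96.0 in WT) the brightest by mean level. Cd14 was 7.25-fold higher (256 in KO). Adgre1 (71.8) and Fcgr3 (134) were above background in KO and at background in WT, while Csf1r had 21.0 in KO and 27.3 in WT and Lyz2 read background in KO. Mast cell and basophil markers had 3 of 5 higher (648 in KO, 103 in WT in sum). The brightest by mean level were Cpa3 (367 in KO, 28.2 in WT) and Fcer1a (75.9 in KO, 32.3 in WT). Mcpt8 had 162 in KO and was at background in WT, a bound of at least 11.4-fold. Gata2 had a bound of at least 1.28-fold (18.1 in KO), Prss34 was 1.18-fold higher (25.1 in KO, 21.1 in WT), and Ms4a2 read background on both arrays. B cell markers had 1 of 4 higher (1593 in KO, 900 in WT in sum), with Cd79b (1155 in KO, 665 in WT) and Ms4a1 (266 in KO, 131 in WT) the brightest, and Pax5 read background on both arrays. Of the 5 gamma delta or innate T cell markers, Sox13 and Blk read background on both arrays. Zbtb16 and Trdc had no matched probe, and Tcrg-V4 was not found in the gene table. No listed marker of these cells therefore had a value. The T cell identity genes had a summed signal of 290028 in KO against 416311 in WT. Among them Thy1 (-0.16) and Cd3d (-0.19) differed less than Cd6 (-1.94), Cd5 (-1.73) and Cd2 (-1.21). The part of other cells in the values of Cd8a, Nkg7 and Ctsw was not tested.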

How the data were processed

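Total RNA (500 ng) was labelled with Cy3 and hybridised to Agilent arrays, 1 for Menin KO and 1 for Menin WT. Per the file headers, the authors' spot intensity was made with Feature Extraction 10.7.3.1 (the submitters' processing notes name 10.7) and is background-subtracted and detrended, on a linear scale, with the probe annotation on mm9. The other deposited columns used were the software's error of each intensity and its flags for outliers and background. The authors' deposited value table holds log2 values, which differ from the log2 processed intensity by 1 constant per array (100% of KO and 99.995% of WT probes within 0.01), and served as an alternative. Its column medians were -3.90 for KO and -3.97 for WT.

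Spots with outlier flags were left out (103 on KO, 115 on WT). Of 41174 probes, 27050 matched 1 symbol through RefSeq or Ensembl accessions of GRCm38.p6 genes, none matched several and 14124 matched none. Spots of a probe were averaged. A gene took its brightest probe, where the probe passed the background flag on 1 array or both (at least 50% of its used spots carrying that flag). Where 1 array was at background, the difference is a bound against that array's lowest level above background or the dim probe's level, whichever is higher. The members and lists were chosen with earlier results of these data known. Genes named were the 10 members, all lineage regulators or the 4 largest differences of a list, the 2 brightest markers of a cell type, Men1, Bach2 and chromosomal neighbours. Other genes were added as markers or as examples after their values were seen. Analyses used Python 3.11.15 and limma 3.58.1 (normexp, offset 50, on median spot and background signals), and the procedure was tested on simulated data.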

Additional observations from a re-analysis of the deposited data

How the results depend on the processing

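No test was possible with 1 array in each group, and replicate arrays are lacking. No paired analysis was possible because each group has a single sample. Over 11 alternatives in background correction, normalization, probes and filters, the log2 differences of 8 of the 9 measured lineage genes kept their sign, and Zbtb7b kept it in 10. Cd8a ran from 2.87 to 3.44, Nkg7 from 2.36 to 2.65, Runx2 from 1.32 to 2.33, Ctsw from 0.97 to 1.20, Runx3 from 0.41 to 0.68, Cd4 from -0.76 to -0.57 and Cbfb from -0.42 to -0.06. The number at least 2-fold lower in KO, 1 (Runx1), was 0 under either normexp correction, loess, the mean over probes and a 4-fold rule, and 2 (Cd4 and Runx1) under a 1.5-fold rule. Under both normexp corrections the other Runx1 probe became the brighter one and gave the gene's value; the first probe then had -0.97 and, with aberrant backgrounds replaced, -0.80. The number at least 2-fold higher was 4 throughout, except 3 when centred on the median and under the 4-fold rule.

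Over all genes, 1458 were at least 2-fold higher in KO and 694 lower. Normexp gave 601 higher and 1682 lower, and 760 and 369 with backgrounds replaced, the 1.5-fold rule 2338 and 1712, the 4-fold rule 542 and 158, and no filter on dim probes 1113 lower. For the other changes the cause was not tested. Fewer than 100 units of signal lay behind the dim probes of Runx2 and Cbfb in KO, where spot scatter was larger.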
